A study of Mus musculus with 12 samples.

Results

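The 40 genes described here mark cellular senescence, its secreted factors and the p53 response. They were chosen by name, 20 for senescence and secretion (Cdkn1a to Plat) and 20 for p53 and DNA damage (Mdm2 to Brca1), out of 37306 gene names on the array. All 40 had a probe, and the brightest probe stands for the gene. For 36 of the 40 the scanner called it well above background on every array of a group, and these 36 entered the tests. Probes for Mmp3, Mmp12 and Eda2r were not well above background on any array. Cdkn2a, which encodes the cell cycle inhibitor p16 and the p53 activator ARF, passed on 7 of 12 arrays and in no group on all 3.

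Senescence is a lasting arrest of the cell cycle. The inhibitors made by Cdkn1a, Cdkn2a and Cdkn2b hold the Rb protein active, lamin B1 is lost from the nucleus, lysosomal beta-galactosidase rises, and the cell secretes binding proteins, proteases and their inhibitors. The p53 protein, made by Trp53, is switched on by DNA damage through kinases such as ATM and drives genes for arrest, repair and cell death. Mdm2 is one of its targets and encodes the ligase that degrades it.

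RNA came from basal forebrain and cortex of 6 mice aged 2 months and labelled male, 3 per genotype, each giving both regions. The knockout mice, labelled DKO, carried a Cre driven by Chat, which is active in cholinergic cells, and lacked Psen2 in all cells. The controls (Con) had no Cre and kept 1 working Psen2 copy. Both groups carried the same floxed allele, which Cre could cut only in the DKO mice. Cholinergic cells are few in these tissues, and a change inside them could be diluted by other cells. In bulk tissue, fewer cells of a type and less RNA per cell cannot be told apart. Tissue was taken after cervical dislocation and frozen at once. By its title, the study concerns accelerated ageing and inflammation.

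The promoters of these genes were searched for the letters p53 binds, as a description with no test. In the RefSeq windows of build GRCm38.p6, which run from 250 bases before a gene's start to 50 after it, 35 of the 40 genes had an entry. A match in any window of a gene counted. A half-site of the p53 response element (its 10-base consensus, which reads the same on both strands) was found in 10 of those 35, or 28.6%, against 9.55% of all 27025 symbols. A pair of half-sites at most 13 bases apart was found in 1 of the 35, Cdkn1a, and in 0.074% of all symbols. Cdkn1a encodes p21, the arrest factor that p53 is best known for. The 250 bases upstream of the start whose window held the pair, at chr17:29090729-29090978 (plus strand), are shown with both half-sites in capitals, 12 bases apart. Whether the transcripts read by the Cdkn1a probe begin at that start was not tested. Another Cdkn1a probe, upstream of it at chr17:29227986-29228045 (mm9), was well above background on 1 array, and the probe that was read on 12. How that probe lies to the window was not worked out, since the builds differ.
Cdkn1a: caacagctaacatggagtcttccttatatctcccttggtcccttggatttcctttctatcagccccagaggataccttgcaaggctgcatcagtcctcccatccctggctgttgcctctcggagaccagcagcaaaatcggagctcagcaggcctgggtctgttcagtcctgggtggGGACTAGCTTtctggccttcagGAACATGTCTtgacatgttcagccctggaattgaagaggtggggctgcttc

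The other half-sites are shown in capitals with 10 bases on either side, for the members whose values are given array by array below. A match to these letters is not evidence that p53 binds there.
Mdm2 (chr10:117710925-117710954, minus strand): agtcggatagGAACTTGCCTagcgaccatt
Trp53 (chr11:69580274-69580303, plus strand): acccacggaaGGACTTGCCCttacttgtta
Gadd45a (chr6:67037428-67037457, minus strand): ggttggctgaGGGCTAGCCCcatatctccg
Bax (chr7:45467080-45467109, minus strand): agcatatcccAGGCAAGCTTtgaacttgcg
Ccng1 (chr11:40755452-40755481, minus strand): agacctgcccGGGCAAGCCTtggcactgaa
Sesn1 (chr10:41887256-41887285, plus strand): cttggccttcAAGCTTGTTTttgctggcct
The same search matched Cdkn2d, Aen and Polk.

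Levels are log2 intensity minus the 75th percentile of the array, so 0 is that percentile, and levels of different genes are not compared. A gene passed when limma's adjusted p (Benjamini-Hochberg over all genes of the comparison) was under 0.05. Between 70.3% and 76.1% of probes were well above background, and arrays of a group correlated at 0.985 to 0.995. Psen2 stood between -1.86 and -1.25 on the 6 DKO arrays and between 0.25 and 0.50 on the 6 Con arrays, as labelled. All 9 measured cholinergic neuron markers were higher in basal forebrain than in cortex in both genotypes, and 8 of 9 cortical excitatory markers were lower (adjusted p under 0.05 for each). DKO mice 1 and 3 went against the male label: Xist stood at -2.32 to -1.53 on their 4 arrays and at -9.14 to -6.48 on the other 8, and Ddx3y, on the Y chromosome, at -8.99 to -8.47 against -1.55 to -1.11. Blood-cell genes were high in every DKO sample. The mean level of 8 neutrophil markers was -3.78 to -2.94 on Con arrays and -1.88 to -0.35 on DKO arrays, that of 5 red-cell markers 1.73 to 2.33 and 3.19 to 4.88, and that of 6 B-cell markers -6.69 to -6.21 and -4.47 to -3.31. The part of sex and of blood cells in the differences below was not tested. Slide 1 held all 6 basal forebrain arrays plus DKO cortex from mice 1 and 2; slide 2 held DKO cortex from mouse 3 and all 3 Con cortex arrays.

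In basal forebrain 0 of the 36 measured genes passed between DKO and Con by limma, beside 8 of 26102 genes in all (0.0306%). At an unadjusted p under 0.05 there were 3 of the 36, and 1146 of all genes (4.39%). The differences were 20 above 0 and 16 below it, beside 51.1% of all genes above 0. Their median was 0.02 log2 against 0 for all genes tested, and they ran from -0.37 to 0.56. The 3 DKO arrays lay wholly above the 3 Con arrays for 1 gene (background 4.63%) and wholly below for 1 (background 5.32%).

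The core of the p53 loop had nearly the same level in both genotypes in basal forebrain. Trp53 stood at -0.75, -0.51 and -0.72 in DKO mice 1, 2 and 3 and at -0.84, -0.51 and -0.63 in Con. The DKO values lie inside the Con range, and the difference was 0.00 (SE 0.12). Mdm2 was at 3.22, 3.34 and 3.29 in DKO, with Con at 3.21, 3.30 and 3.27, a difference of 0.02 (SE 0.06). Cdkn1a varied from mouse to mouse, at -0.06, 0.67 and -0.27 in DKO and 0.16, -0.25 and 0.73 in Con. Its groups overlapped, with a difference of -0.10 (SE 0.31). The same mice were high for Cdkn1a in both regions: DKO mouse 2 read 0.87 and Con mouse 3 read 0.81 in cortex, the highest of their groups there too.

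Among the p53 and DNA damage genes, Pmaip1 and Gadd45b were the 2 whose basal forebrain groups did not overlap. Pmaip1 encodes NOXA, a protein that favours apoptosis by blocking MCL1. It stood at -1.88, -1.45 and -1.74 in DKO and at -2.41, -2.32 and -2.00 in Con. Every DKO value was above every Con value, and the mean was 0.56 higher (SE 0.17, 1.47-fold, adjusted p = 0.973 by limma). Gadd45b, a stress-induced gene with roles in DNA demethylation and MAP kinase signalling, stood at 0.29, 0.23 and 0.38 in DKO and at 0.48, 0.43 and 0.73 in Con. It was 0.25 log2 lower in DKO (difference -0.25, SE 0.10, adjusted p = 0.973). In cortex neither gene kept that order. Pmaip1 differed by -0.09 (SE 0.22) and Gadd45b by 0.28 (SE 0.14) there, with overlapping groups. Fas, the death receptor, was at -1.47, -1.11 and -1.77 in DKO, with Con at -1.74, -1.81 and -1.63, a difference of 0.28 (SE 0.18, adjusted p = 0.973) with overlap. Brca1, a DNA repair gene, was at -1.82, -1.62 and -1.47 in Con and -2.27, -1.73 and -2.02 in DKO, a difference of -0.37 (SE 0.17, adjusted p = 0.973). A second Brca1 probe, well above background on all arrays, gave 0.10. Atm and Chek1 (damage kinases), Polk (a polymerase that copies past lesions), Aen (a nuclease), Bbc3, Zmat3, Trp53inp1, Phlda3, Gadd45a, Bax, Sesn1 and Sesn2 lay between -0.03 and 0.18. Plk2 differed by 0.22 (SE 0.22) and Ccng1 by -0.10 (SE 0.09), with overlap in both.

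Igfbp3, a secreted carrier of insulin-like growth factors and a known product of senescent cells, was split within the DKO group in basal forebrain. DKO mice 1 and 2 stood at 1.30 and 1.33, above the Con values of 0.54, 0.47 and 0.74, and DKO mouse 3 at 0.60 lay among them. The mean difference was 0.49 (SE 0.20, 1.41-fold, adjusted p = 0.973). Igfbp7, a secreted protein abundant in brain vessels, was at 3.82, 3.66 and 3.35 in DKO and 3.46, 3.24 and 3.55 in Con, again with mouse 3 the lowest of the DKO arrays. Its difference was 0.19 (SE 0.14).

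The remaining senescence genes stayed close to their Con level in basal forebrain. Gdf15, a stress cytokine raised in mitochondrial disease and ageing, read -5.77, -5.36 and -5.60 in DKO. Con mice read -5.57, -5.15 and -5.34, a difference of -0.22 (SE 0.21) with overlap. Glb1, the source of senescence-associated beta-galactosidase, differed by 0.13 (SE 0.12) and Lmnb1, encoding lamin B1, by -0.01 (SE 0.17). The inhibitors Cdkn2b (0.02, SE 0.16) and Cdkn2d (0.03, SE 0.07) were near 0. The protease genes and their inhibitors, Mmp14, Timp1, Timp2, Plaur and Plat, lay between -0.14 and 0.05. In basal forebrain Cdkn2a read -5.90, -8.92 and -7.66 in DKO, with 1 array well above background, and -6.75, -7.39 and -6.49 in Con, with 2. In cortex it was at -5.84, -6.49 and -5.92 in DKO, with Con at -5.67, -5.88 and -6.29, with 2 of 3 arrays above background in each. The groups overlapped in both regions, and no fold is given because neither group was measured on every array.

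**Figure D1:**
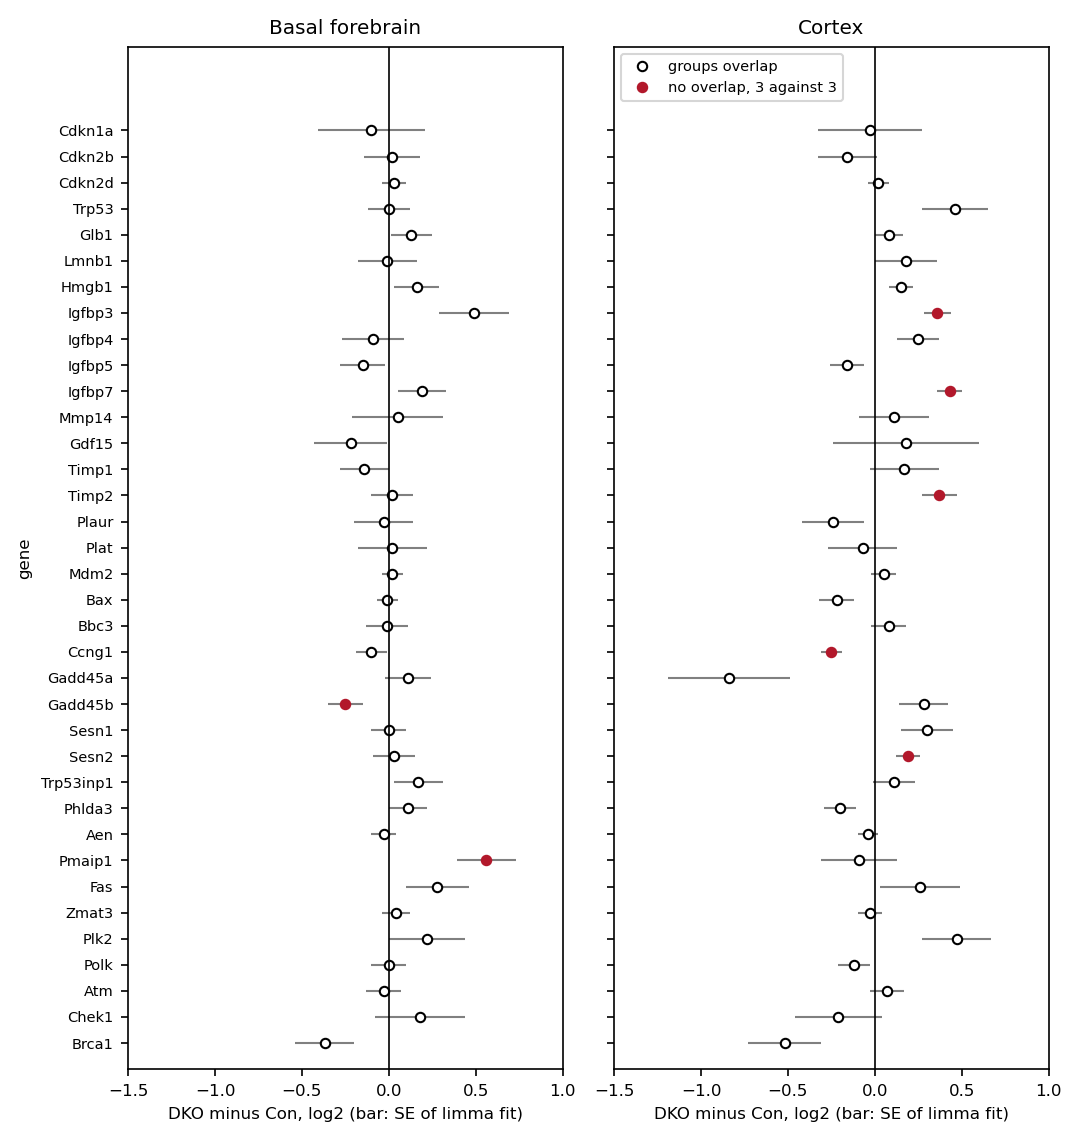
Difference DKO minus Con (x axis, log2) for the 36 measured genes (y axis) in basal forebrain and cortex; bars are the SE of the limma fit, and filled red points mark genes whose 3 DKO and 3 Con arrays do not overlap. There are 2 filled points in basal forebrain and 5 in cortex, and no gene passed the adjusted test in either region.

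In cortex 0 of the 36 genes passed by limma, beside 3 of 25798 in all (0.0116%). At an unadjusted p under 0.05 there were 10 of the 36, and 4863 of all genes (18.9%). The differences ran from -0.84 to 0.47, 21 above 0 and 15 below, beside 41.5% of all genes above 0. Their median was 0.07 against -0.05 for all genes. The DKO arrays lay wholly above Con for 4 genes (background 8.86%), which were Igfbp7, Igfbp3, Timp2 and Sesn2, and wholly below for 1, Ccng1 (background 13.5%).

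Of the 4 higher genes, 3 encode secreted proteins. Igfbp7 stood at 3.63, 3.68 and 3.44 in DKO cortex and at 3.16, 3.15 and 3.17 in Con. The Con arrays were tightly grouped and every DKO array was above them, by 0.43 on average (SE 0.07, 1.34-fold, adjusted p = 0.213 by limma). Igfbp3 stood at 1.35, 1.29 and 1.13 in DKO and at 0.88, 0.90 and 0.92 in Con, a difference of 0.36 (SE 0.08, 1.28-fold, adjusted p = 0.261). Here DKO mouse 3, which lay among the Con values in basal forebrain, was above them. Timp2, an inhibitor of matrix metalloproteinases, stood at 6.12, 6.07 and 5.74 in DKO and 5.52, 5.65 and 5.65 in Con, a difference of 0.37 (SE 0.10, adjusted p = 0.261).

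Timp2 was also read by a second probe, and that probe gave -0.11 in cortex. The brighter probe lies at chr11:118163146-118163205 (mm9). The second is shown because the direction in cortex depends on the probe: its 60 bases span 6778 bases of genome, chr11:118171964-118178741 (mm9, minus strand), so it crosses a splice junction.
Timp2 second probe: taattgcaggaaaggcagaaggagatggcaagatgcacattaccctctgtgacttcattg

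The other 2 genes with separated cortex groups are p53 targets, and their differences were small. Sesn2, a stress-induced inhibitor of mTORC1, stood at 0.66, 0.67 and 0.57 in DKO and at 0.42, 0.41 and 0.50 in Con, a difference of 0.19 (SE 0.07, adjusted p = 0.261). Ccng1, encoding cyclin G1, an early p53 target that acts back on the p53 and MDM2 loop, stood at 2.10, 2.10 and 2.19 in DKO and at 2.40, 2.40 and 2.33 in Con. All 3 DKO arrays were lower, by 0.25 (difference -0.25, SE 0.06, adjusted p = 0.261). Mdm2 was at 3.27, 3.33 and 3.34 in DKO, with Con at 3.24, 3.18 and 3.37 (0.05, SE 0.07). Cdkn1a was at -0.16, 0.87 and 0.13 in DKO, with Con at 0.13, -0.03 and 0.81 (-0.03, SE 0.30). Gdf15 was at -5.56, -5.67 and -4.21 in DKO, with Con at -5.52, -4.92 and -5.54 (0.18, SE 0.42); the array of DKO mouse 3 was the highest of the 12.

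**Figure D2:**
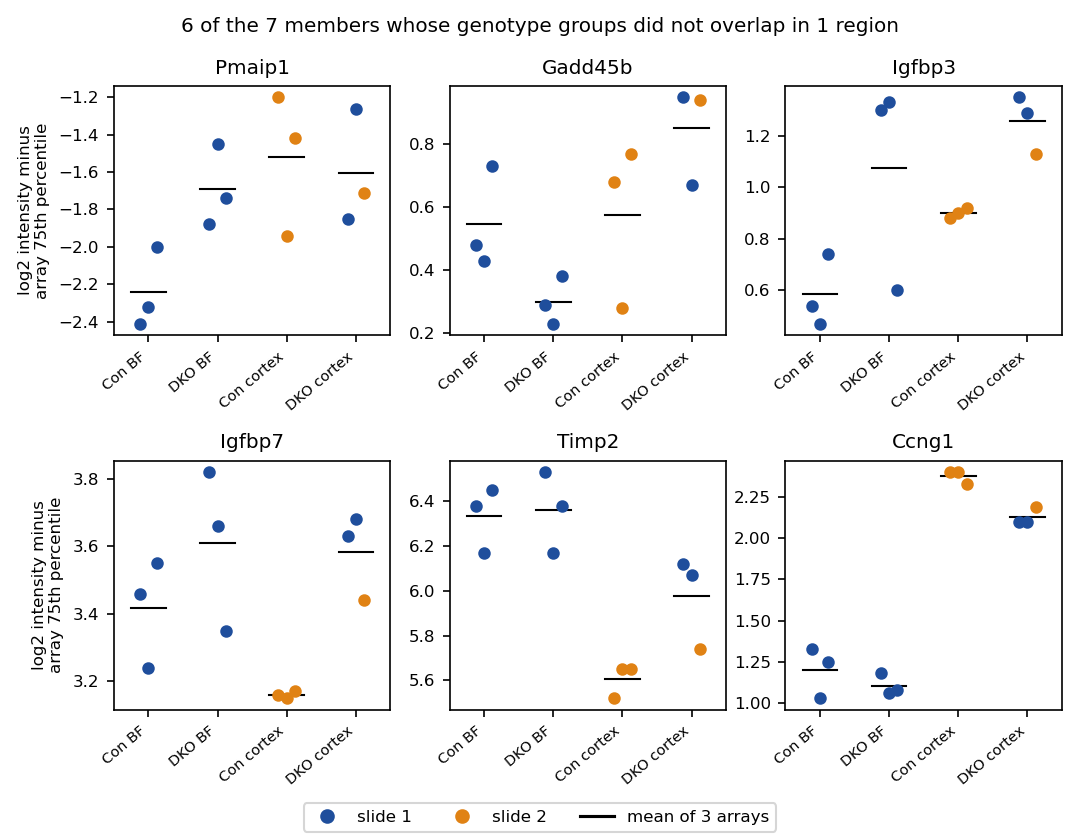
Level on each of the 12 arrays (y axis, log2 intensity minus the array's 75th percentile) for 6 of the 7 genes whose genotype groups did not overlap in 1 region, by group on the x axis; colours give the slide and lines the mean of 3 arrays. In Igfbp7 the Con cortex arrays, all on slide 2, read 3.15 to 3.17, and DKO mouse 3, also on slide 2, read 3.44.

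The slide of an array has to be set beside these cortex values. For 8 of the 36 genes both slide 1 cortex arrays (DKO mice 1 and 2) were above all 4 cortex arrays of slide 2 (background 22%), and for 10 both were below (background 35%). Set against those backgrounds, the counts are no result about these members. The 8 were Trp53, Timp1, Timp2, Igfbp3, Igfbp7, Sesn1, Sesn2 and Atm. The 10 were Gadd45a, Bax, Brca1, Chek1, Polk, Phlda3, Ccng1, Cdkn2b, Plaur and Gdf15. Within slide 2, DKO mouse 3 was set against the mean of the 3 Con cortex arrays. It differed by 0.28 for Igfbp7, 0.23 for Igfbp3, 0.14 for Timp2, 0.13 for Sesn2 and -0.19 for Ccng1. The sign carries no information, since these genes were named because every DKO cortex array lay beyond Con. With slide as a term in the fit, Igfbp7 differed by 0.28 (adjusted p = 0.307), Igfbp3 by 0.23 (adjusted p = 0.624) and Ccng1 by -0.19 (adjusted p = 0.647). These differences repeat the values within slide 2, since slide 1 held no Con cortex array, and they rest on the array of DKO mouse 3.

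Gadd45a showed the split most plainly. This gene encodes a p53 target that binds PCNA and p21 and slows entry into mitosis. It stood at -1.17 and -1.13 in DKO mice 1 and 2 (slide 1) and at 0.09 in DKO mouse 3 (slide 2). Con cortex, on slide 2, stood at 0.09, -0.29 and 0.52. DKO mouse 3 thus read the same as Con, and the group difference of -0.84 (SE 0.35, adjusted p = 0.264) came from the 2 arrays of slide 1. The 6 basal forebrain arrays, on slide 1 too, read -1.64 to -1.22. Within slide 2 the genotype difference was -0.02.

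Trp53 and Bax were arranged in the same way. Trp53 stood at -0.64 and -0.49 in DKO mice 1 and 2, at -1.26 in DKO mouse 3 and at -1.24, -1.36 and -1.18 in Con. The group difference in cortex was 0.46 (SE 0.19, adjusted p = 0.264), and 0.00 within slide 2. Bax, which opens the mitochondrial outer membrane in apoptosis, stood at 1.86 and 1.82 in DKO mice 1 and 2, at 2.16 in DKO mouse 3 and at 2.18, 2.17 and 2.14 in Con. Its basal forebrain arrays read 1.83 to 1.87, so all 12 arrays sorted by slide. The Bax difference in cortex was -0.22 (SE 0.10, adjusted p = 0.269), and 0.00 within slide 2.

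The cortex arrays of Brca1, Sesn1 and Phlda3 also parted by slide, and their basal forebrain arrays did not. Brca1 read -2.72 and -2.83 in DKO mice 1 and 2 and -2.04 in mouse 3, against -2.11, -1.96 and -1.94 in Con. Sesn1, another stress-induced inhibitor of mTORC1, read 3.08, 3.43 and 2.73 against 2.77, 2.78 and 2.78. Phlda3, a p53-induced repressor of AKT, read 2.86, 2.76 and 3.08 against 3.05, 3.12 and 3.14. In each the slide 2 array of DKO mouse 3 was next to or among the Con values. The DKO minus Con differences, -0.52 (SE 0.21), 0.30 (SE 0.15) and -0.20 (SE 0.09), became -0.04, -0.05 and -0.03 within slide 2. On slide 1, basal forebrain stood at -2.27 to -1.47 for Brca1 and 2.60 to 2.93 for Sesn1, on both sides of the slide 2 values, and at 3.09 to 3.48 for Phlda3, mostly above them. Over all 12 arrays these 3 genes thus did not sort by slide. Plk2, a p53-induced kinase, was at 0.61, 0.87 and 0.67 in DKO, with Con at -0.08, 0.72 and 0.10 (0.47, SE 0.20, adjusted p = 0.264). It kept a difference of 0.43 within slide 2, although Con mouse 2 lay above 2 of the DKO arrays.

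**Figure D3:**
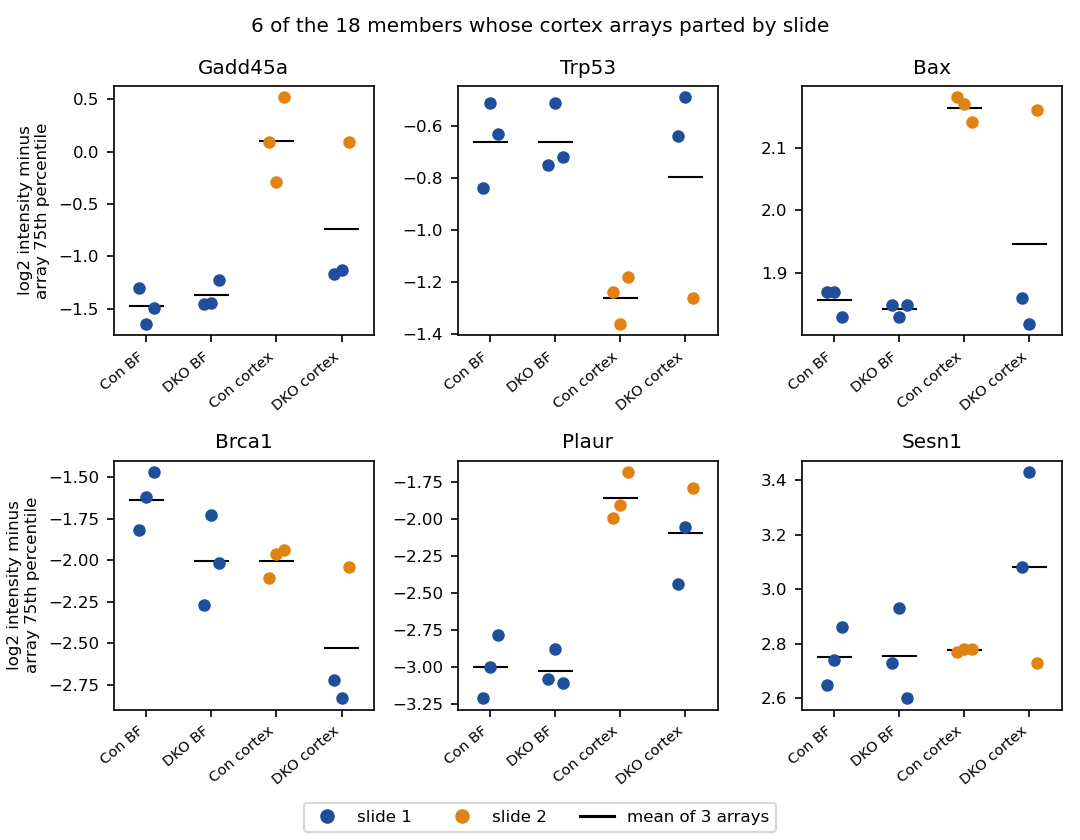
Level on each array (y axis, log2 intensity minus the array's 75th percentile) for 6 of the 18 genes whose cortex arrays parted by slide, chosen after their values were seen; the x axis gives the group, colours the slide and lines the mean of 3 arrays. In Gadd45a, Trp53 and Bax the slide 2 array of DKO cortex lies with the Con cortex arrays.

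Leaving out DKO mouse 3 in cortex makes genotype and slide the same split. Then 11 of the 36 passed (30.6%), beside 37.4% of all genes. Leaving out DKO mice 1 and 3, the mice that went against the male label, left DKO mouse 2 on slide 1 against Con on slide 2. Then 14 of the 36 passed (38.9%), beside 29.4% of all genes. That fit has 1 DKO array, which is assumed to vary as the Con arrays do.

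Averaging the regions of each mouse gave 0 of 36 genes passing by limma, beside 42 of 26959 (0.156%), with 6 of the 36 and 2897 of all genes at an unadjusted p under 0.05. The differences were 22 above 0 and 14 below, beside 44% of all genes above 0, with a median of 0.02 against -0.02 for all genes. The DKO mice lay wholly above the Con mice for Igfbp3, Igfbp7, Hmgb1 and Timp2 (4 genes, background 6.41%) and wholly below for Brca1 and Ccng1 (2 genes, background 10.3%). Igfbp3 was 0.42 higher (SE 0.12, 1.34-fold, adjusted p = 0.402) and Igfbp7 0.31 higher (SE 0.09, 1.24-fold, adjusted p = 0.407). Hmgb1 encodes a chromatin protein that senescent cells release. In basal forebrain it stood at 3.56, 3.20 and 3.20 in DKO and 3.34, 3.01 and 3.14 in Con, and in cortex at 3.66, 3.85 and 3.87 against 3.60, 3.68 and 3.64. It was 0.15 higher in the mean (SE 0.06, adjusted p = 0.433). Other Hmgb1 probes well above background on all arrays gave 0.09 to 0.13 in basal forebrain and 0.01, 0.03 and -0.52 in cortex. The second Timp2 probe gave -0.09 in basal forebrain and -0.11 in cortex. Brca1 was 0.45 lower (difference -0.45, SE 0.14, adjusted p = 0.415) and Ccng1 0.17 lower (difference -0.17, SE 0.06, adjusted p = 0.43). These means take in the slide split of DKO cortex. Against Con cortex, Brca1 differed by -0.77 in DKO mice 1 and 2 (slide 1) and by -0.04 in mouse 3 (slide 2). For Timp2 these were 0.49 and 0.14, and for Ccng1 -0.28 and -0.19. The second Brca1 probe gave 0.10 in basal forebrain and -0.79 in cortex. Without DKO mouse 3, whose basal forebrain level of 0.60 lay among the Con values, Igfbp3 passed by limma, at 0.58 (adjusted p = 0.0307). It was the 1 member that did, and the count over all genes rose from 42 to 177. Taking out the DKO mouse that lay among Con widens the difference, so that pass adds no support. It also leaves DKO cortex on slide 1 only and Con cortex on slide 2 only. Genotype and slide then cannot be told apart in the cortex part of the mean.

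Endothelial markers are given beside the Igfbp values because Igfbp7 is abundant in vessels. Their mean level over 11 genes, all measured, was 0.47 to 0.57 in Con and 0.65 to 0.95 in DKO basal forebrain, and 0.32 to 0.57 against 0.64 to 0.74 in cortex. In basal forebrain 9 of the 11 were above 0 (median 0.21). In cortex 6 were above 0 and 5 below (median 0.03): Vwf was at 1.75 and Ly6c1 at 0.63, while Cdh5 was at -0.30 and Pecam1 at -0.11. By limma 0 of the 11 passed in either region (3 and 3 at an unadjusted p under 0.05). Of 10 mural markers, 9 were above 0 in basal forebrain (median 0.15) and 4 in cortex (median -0.03), with 0 passing (2 and 1 at that p). In cortex the medians of other lists were 0.47 for choroid plexus (9 of 9 above 0), -0.60 for cholinergic neurons (0 of 9), -0.32 for microglia (0 of 9) and -0.24 for oligodendrocytes (1 of 9), with 0 passing in each (4, 4, 3 and 3 at that p). Of all genes, 51.1% were above 0 in basal forebrain and 41.5% in cortex. The part of these cells in the Igfbp3, Igfbp7 and Timp2 differences was not tested. In cortex the mean levels of the cholinergic neuron, microglia and oligodendrocyte lists parted by slide. Cholinergic neuron markers stood at -3.18 and -2.65 in DKO mice 1 and 2 (slide 1). DKO mouse 3 (slide 2) stood at -2.16, and Con at -2.22 to -2.03. Microglia markers stood at 1.88, 1.45 and 2.18 in DKO and at 2.17 to 2.18 in Con. Oligodendrocyte markers stood at 3.28, 2.99 and 3.65 in DKO, with Con between 3.28 and 3.65. The part of slide in these medians was not tested.

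The interaction, which sets the genotype effect of basal forebrain against that of cortex, passed for 0 of the 36 genes, and for 0 of 26959 genes in all (0%) by limma, with 2254 (8.36%) at an unadjusted p under 0.05. The 3 of the 36 under that p were Gadd45b (-0.52, SE 0.19), Gadd45a (0.95, SE 0.41) and Phlda3 (0.32, SE 0.14), each at an adjusted p of 0.562. Gadd45a and Phlda3 are among the genes whose cortex arrays parted by slide. A difference of the genotype effect between the regions was not shown for any of these genes.

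Counts of members that passed between regions are given beside the share over all genes. Without a slide or mouse term, the count over both directions did not exceed that share in either genotype. This does not hold for the lower counts alone, and no count was tested against its share. In Con mice 15 of 36 (41.7%) passed between basal forebrain and cortex: 4 were higher in basal forebrain (all genes 18.5%) and 11 lower (all genes 30.5%), beside 49% of all genes in either direction. In DKO mice 12 passed (33.3%, beside 39.9%), 3 higher (all genes 19.3%) and 9 lower (all genes 20.6%). The median over the 36 was -0.06 in Con and -0.08 in DKO, beside -0.09 and -0.04 for all genes. With each array centred on its median in place of its 75th percentile, all genes shifted to -0.21 and -0.32. The calls among the 36 were then 3 higher and 11 lower in Con and 0 higher and 18 lower in DKO. Beside them, 3195 of all 26592 genes were called higher and 8490 lower in Con. In DKO 2974 of all 25916 genes were called higher and 10123 lower. Of all genes that passed, the higher share moved from 37.7% to 27.3% in Con and from 48.3% to 22.7% in DKO. All 3 Con cortex arrays were on slide 2 and all Con basal forebrain arrays on slide 1, so region and slide cannot be told apart in Con. A slide term in the fit of 12 arrays can be estimated here from DKO cortex alone, mice 1 and 2 against the 1 array of mouse 3, so it carries that contrast over to Con and rests on that array. DKO mice 1 and 2 had both regions on slide 1. The mice are paired across regions, and with the mouse as a block 20 members passed in Con (55.6%, beside 55.8% of all genes) and 11 in DKO (30.6%, beside 31.3%).

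Ccng1, Igfbp4 and Plaur were lower in basal forebrain in both genotypes. Ccng1 stood at 1.03 to 1.33 on the 6 basal forebrain arrays and at 2.10 to 2.40 on the 6 cortex arrays. It was 1.17 lower in Con (difference -1.17, SE 0.08, adjusted p = 8.75e-07) and 1.02 lower in DKO (-1.02, SE 0.08, adjusted p = 2.04e-06). Within DKO mice 1 and 2, on 1 slide, it differed by -0.92 and -1.04. Igfbp4, a secreted inhibitor of insulin-like growth factor, stood at -1.90 to -1.31 in basal forebrain and at -0.33 to 0.15 in cortex, with no overlap. It fell by 1.38 in Con (SE 0.16, adjusted p = 4.11e-05) and by 1.71 in DKO (SE 0.16, adjusted p = 7.62e-06), and a second Igfbp4 probe gave -1.09 and -1.71. Within slide 1 it differed by -1.69 and -1.52. Plaur, the urokinase receptor, stood at -3.21 to -2.78 in basal forebrain and -2.44 to -1.68 in cortex, lower by 1.14 in Con (-1.14, SE 0.18, adjusted p = 0.00037) and by 0.93 in DKO (-0.93, SE 0.18, adjusted p = 0.00162). With slide as a term the Con difference of Plaur was -0.69 (adjusted p = 0.151), and that of Ccng1 and Igfbp4 still passed, at -1.08 and -1.46.

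Lmnb1 and Timp2 were the genes higher in basal forebrain in both genotypes, and Mmp14 and Trp53 were so in Con. Lmnb1 stood at -1.22 to -0.72 in basal forebrain and at -1.78 to -1.09 in cortex. It rose by 0.72 in Con (SE 0.19, adjusted p = 0.00845) and by 0.53 in DKO (SE 0.19, adjusted p = 0.0414), and within slide 1 it differed by 0.69 and 0.51. Its Con call held in 16 of 16 alternative fits and its DKO call in 7 of 18. Timp2 stood at 6.17 to 6.53 in basal forebrain and at 5.52 to 6.12 in cortex. It was 0.73 higher in Con (SE 0.12, adjusted p = 0.000454) and 0.38 in DKO (SE 0.12, adjusted p = 0.0219), and its second probe gave 0.49 and 0.52. With slide as a term Timp2 was 0.38 in Con (adjusted p = 0.224), and with the mouse as a block its DKO call was lost (adjusted p = 0.0601). Mmp14, a membrane-bound matrix protease, stood at -3.22, -3.00 and -2.26 in Con basal forebrain and -3.69, -3.72 and -3.14 in Con cortex, and at -2.90, -2.69 and -2.73 against -3.28, -3.35 and -3.59 in DKO. The Con groups overlapped. It was 0.69 higher in Con (SE 0.24, adjusted p = 0.0318) and 0.63 in DKO (SE 0.24, adjusted p = 0.0543). The Con call of Mmp14 held in 8 of 16 alternative fits. The basal forebrain arrays also had higher meningeal fibroblast markers (9 of 9 above cortex, 8 passing in Con and 6 in DKO) and mural markers (7 of 10 above cortex in Con and 9 in DKO, with 4 and 6 passing). The part of those cells in the Mmp14 and Timp2 differences was not tested. Without the basal forebrain array of DKO mouse 3, 8 of the 36 passed in DKO (22.2%, beside 28.7% of all genes).

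Several Con region calls carried the slide pattern. Gadd45a was 1.59 lower in Con basal forebrain (-1.59, SE 0.29, adjusted p = 0.00116) and did not pass in DKO (-0.63, SE 0.29, adjusted p = 0.106). In DKO mice 1 and 2, with both regions on slide 1, it differed by -0.28 and -0.31, and in mouse 3, with its regions on different slides, by -1.30. Trp53 was 0.60 higher in Con (SE 0.17, adjusted p = 0.0138), and within slide 1 it differed by -0.11 and -0.02. Bax was 0.31 lower in Con (-0.31, SE 0.08, adjusted p = 0.00928), and within slide 1 it differed by -0.01 and 0.00. With slide as a term the 3 Con differences were -0.35, -0.09 and 0.01, with none passing (adjusted p 0.561, 0.821 and 0.959), and 4 of the 36 passed (11.1%, beside 10.8% of all genes): Ccng1, Igfbp4, Lmnb1 and Brca1. Pmaip1 stood at -1.20, -1.94 and -1.42 in Con cortex and at -1.85, -1.26 and -1.71 in DKO cortex. It was 0.72 lower in Con basal forebrain (-0.72, SE 0.21, adjusted p = 0.015) and -0.08 in DKO (SE 0.21, adjusted p = 0.798). The interaction for Pmaip1 was 0.65 (SE 0.30, adjusted p = 0.562), so a difference between the genotypes was not shown.

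The remaining calls are given by their difference. Both genotypes had lower Hmgb1 (-0.48 in each), Cdkn2d (-0.35 in Con and -0.34 in DKO), Zmat3 (-0.41 and -0.34) and Igfbp5 (-0.40 and -0.39) in basal forebrain. Cdkn2d encodes the CDK4 and CDK6 inhibitor p19, and Zmat3 an RNA-binding p53 target. Glb1 passed in Con (-0.29, adjusted p = 0.0389) and was at -0.24 in DKO (adjusted p = 0.0916). Its Con call held in 5 of 16 alternative fits. In DKO the others that passed were Phlda3 (0.46, adjusted p = 0.00379), Gadd45b (-0.55, adjusted p = 0.00609) and Bbc3 (-0.39, adjusted p = 0.0209). Bbc3 encodes PUMA, a p53 target that triggers apoptosis. With the mouse as a block, the Igfbp5 call in DKO was also lost (adjusted p = 0.0555) and Sesn1 gained one (-0.33, adjusted p = 0.042). In Con the block added Plk2 (0.57), Igfbp3 (-0.32), Brca1 (0.37), Igfbp7 (0.26) and Bbc3 (-0.30), and lost no call.

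**Figure D4:**
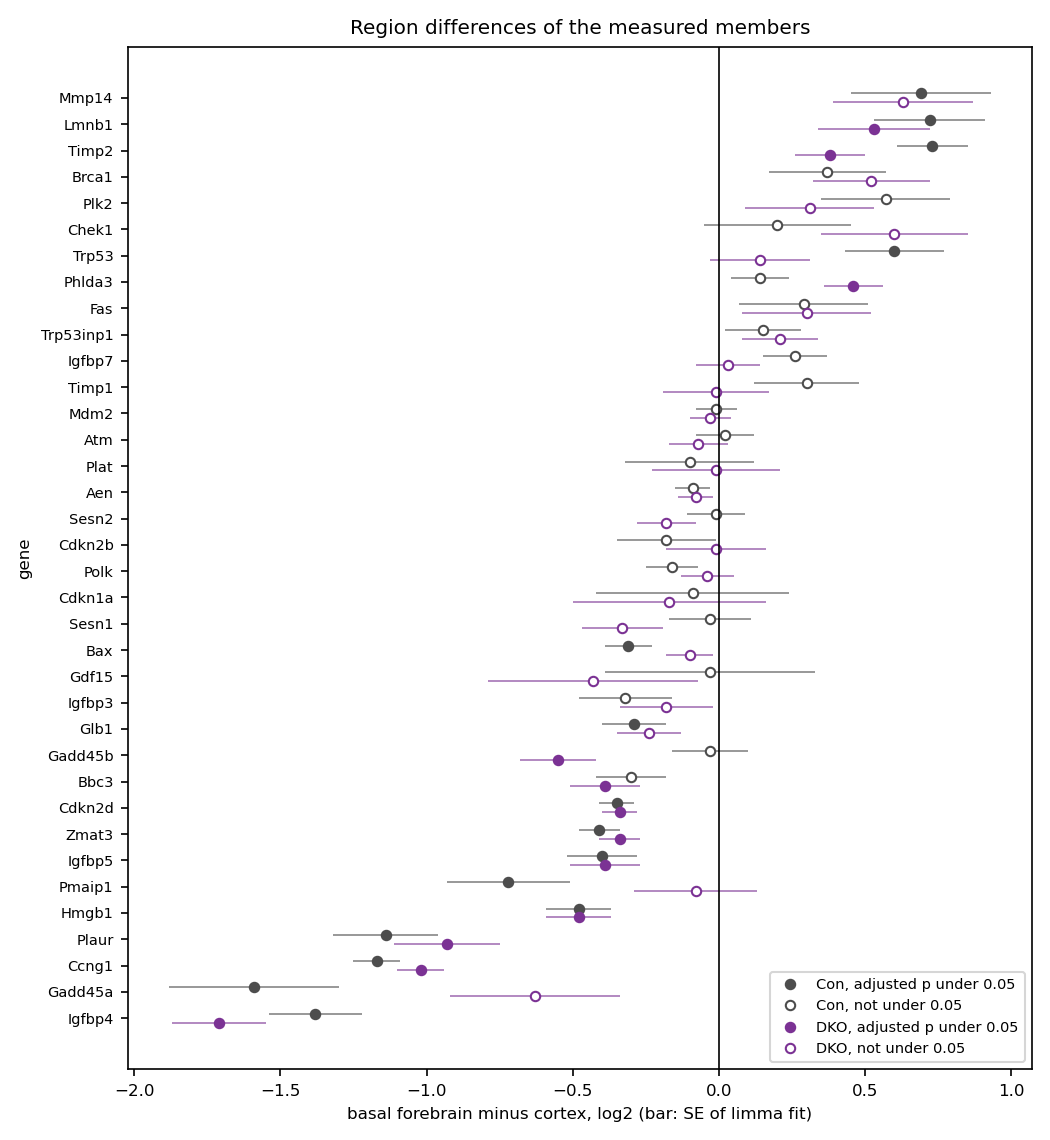
Difference basal forebrain minus cortex (x axis, log2) for the 36 measured genes (y axis) in Con (grey) and DKO (purple) mice; bars are the SE of the limma fit and filled points passed at an adjusted p under 0.05. Igfbp4, Ccng1 and Plaur are far below 0 in both genotypes, and Gadd45a is at -1.59 in Con and -0.63 in DKO.

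Different probes of a gene did not always go the same way. Another probe well above background on all 12 arrays was present for 16 of the members. At least 1 such probe had the opposite sign for 6 of the 16 in the basal forebrain genotype comparison (Aen, Brca1, Cdkn2b, Chek1, Plat and Timp2), and for 7 in cortex (Atm, Fas, Glb1, Hmgb1, Polk, Timp2 and Trp53inp1). In the region comparisons it was 9 in Con (Aen, Atm, Brca1, Chek1, Glb1, Mdm2, Plat, Polk and Trp53inp1) and 7 in DKO (the same without Atm and Trp53inp1). For Glb1 the probe that was read gave -0.29 in Con and another gave 0.36. For Fas the opposite probe is placed on chromosome 4 in the files, while the probe that was read is on chromosome 19. For Mdm2, whose read probe gave -0.01 and -0.03 between regions, a second probe gave 0.59 and 0.45.

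The rest of the pathway gave few calls by genotype. Of 24 other p53 targets, 0 passed in basal forebrain, cortex or their mean by limma (3, 6 and 4 at an unadjusted p under 0.05), with medians of 0.00, -0.02 and -0.03. In basal forebrain the smallest p belonged to Ckap2 (-0.63, SE 0.21) and Ptp4a3 (-0.20, SE 0.08), both at an adjusted p of 0.973. The smallest p in cortex belonged to Apaf1 (-0.57, SE 0.16, adjusted p = 0.261), the scaffold of the apoptosome, and Ddit4 (0.49, SE 0.18, adjusted p = 0.261), an inhibitor of mTORC1. Of 21 measured genes for sensing and repairing DNA damage, 0 passed in any of the 3 (0, 1 and 0 at that p), with medians of -0.04, 0.03 and -0.02. In basal forebrain Prkdc (-0.27) and Parp1 (-0.19) came first, both at an adjusted p of 0.973. Brca2 was the one in cortex, at 0.36 (SE 0.15, adjusted p = 0.264), and Rnf8 was next (0.26, SE 0.12, adjusted p = 0.273).

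Of the other secreted factors of senescence, 25 of 32 were measured in each region. In each, 17 were above 0, beside 51.1% of all genes in basal forebrain and 41.5% in cortex. By limma 0 passed in either region (3 and 6 at an unadjusted p under 0.05). The chemokine gene Cxcl1 had the largest difference. The DKO arrays of basal forebrain gave -3.89, -4.72 and -4.67, and the Con arrays -5.28, -5.95 and -5.02. Cortex gave -3.99, -3.93 and -4.99 for DKO, and -6.14, -6.63 and -6.05 for Con. The groups did not overlap in either region, with differences of 0.99 (SE 0.33, adjusted p = 0.973) and 1.97 (SE 0.35, adjusted p = 0.225). Cxcl1 attracts neutrophils, whose markers were high in the same samples. Other chemokine genes were lower in DKO basal forebrain: Cxcl10 (-0.71), Ccl2 (-0.66) and Ccl8 (-0.65), each at an adjusted p of 0.973 by limma. In cortex Ccl2 differed by -0.02 and Ccl8 by 0.87, and Cxcl10 had a mean level of -4.01 in DKO and -3.36 in Con. Angptl4, a secreted inhibitor of lipoprotein lipase, was 0.73 higher (SE 0.20, adjusted p = 0.973) and 0.74 higher (SE 0.14, adjusted p = 0.246).

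Of 20 cell cycle and Rb pathway genes, 5 were above 0 and 15 below in each region. Of all genes, 51.1% were above 0 in basal forebrain and 41.5% in cortex. In the mean of both regions 1 of the 20 passed. That gene, E2f2, encodes a transcription factor held by Rb and is abundant in developing red cells. In basal forebrain it stood at -1.87 to -1.48 in DKO against -2.77 to -2.56 in Con, in cortex at -1.63 to -1.42 against -2.14 to -2.06, and it rose by 0.74 in the mean (SE 0.10, adjusted p = 0.0323). Red-cell markers were higher in the same mice: all 5 measured passed in that comparison. Cdk1 was next, at -0.92 (SE 0.23, adjusted p = 0.369).

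**Figure D5:**
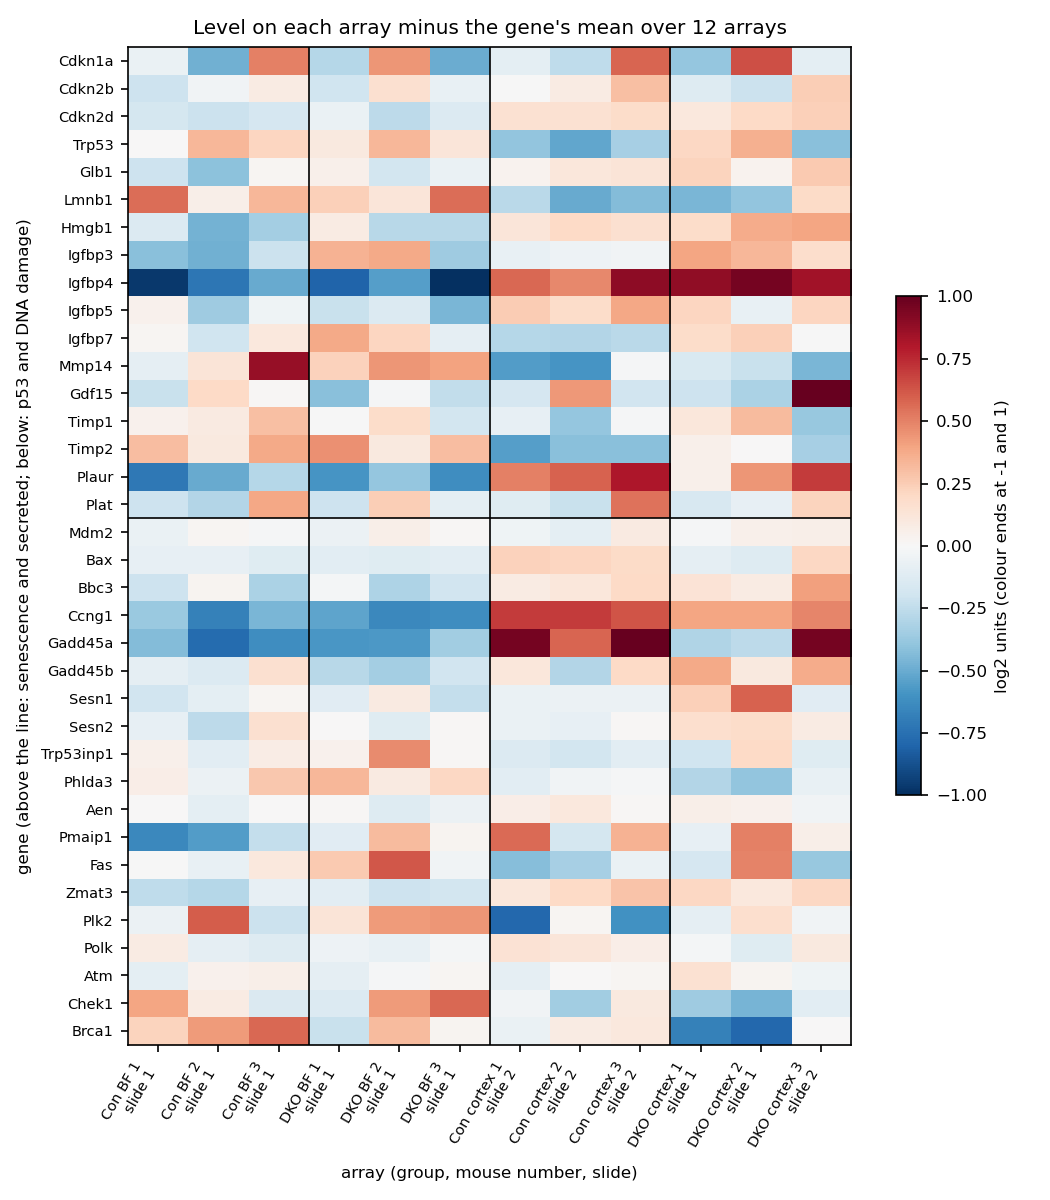
Level on each array minus the gene's mean over 12 arrays (colour, log2 units, ending at -1 and 1) for the 36 measured genes (rows) on 12 arrays (columns, by group, mouse and slide). Gadd45a is high on the 4 arrays of slide 2 and low on the 8 of slide 1, while Igfbp4 and Ccng1 are high on all 6 cortex arrays.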

How the data were processed

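Total RNA of 6 mice (basal forebrain and cortex) was hybridised to 12 1-colour Agilent arrays. The authors deposited scanner intensity values from Agilent Feature Extraction 10.7.1.1, per the submitters' processing notes. They are background-subtracted and detrended per the file headers, with no scaling between arrays. The deposited table of log2 values has identical sorted values on all arrays and served as an alternative. Their normalization method is not named in the labels or headers.

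Log2 of the processed signal minus the array's 75th percentile was tested with limma 3.58.1 in R 4.3.3 (lmFit, eBayes with trend), each gene by its brightest probe, if well above background on all 3 arrays of 1 group compared. Genotype was fitted per region (6 arrays) and on the mean of both regions; region and interaction on all 12 arrays in 4 groups. P-values were adjusted by Benjamini-Hochberg. Of 56605 probes, 37 were left out as outliers and 32972 were named through RefSeq; 0 spots were saturated. The number of arrays limits the precision. Genotype p-values measure the spread between mice, which in DKO cortex includes the split by slide. Region and interaction p-values measure the spread between arrays of a group. They leave out the pairing by mouse except where the mouse is named as a block. Scripts were tested on simulated data.

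All 40 members are accounted for. Cdkn1a, Cdkn2a, Trp53, Mdm2 and Gdf15 are given on every array, as are genes that passed or had the 5 smallest p by genotype; by region the 5 largest rises and falls that passed in Con, and others by difference; from other lists the 2 smallest p. Brca1, Sesn1, Phlda3, Bax, Plk2 and Gadd45a in the slide paragraphs were added after their values were seen. Members and lists were chosen with earlier results of these data known. Alternatives were normalization, background, filter, probe choice, trend, slide and mouse terms, and leaving out arrays.

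Region arrays of 1 mouse are paired by the animal in the titles. Their deviations from the group means correlated at 0.20, 0.26 and 0.32 in Con and 0.01, 0.19 and -0.05 in DKO. One gene of the genotype is not reported here.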

Additional observations from a re-analysis of the deposited data

How the results depend on the processing

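The 42 member values singled out by smallest p or by a call kept their direction and their side of the threshold in 628 of 711 alternatives, lost a call in 70, gained one in 10 and reversed in 3. No genotype value among them had passed, so all 70 lost calls were in the region comparisons. Genotype values counted as kept where they again did not pass. The pooled tally thus understates how often a region call was lost. The reversals were in the Con region comparison: Glb1 at 0.03 with the mean of a gene's probes, and Bax at 0.01 and Trp53 at -0.09 with slide as a term. With slide as a term 4 members and 2884 genes passed there, and 15 and 13025 without it. By genotype members passed in cortex without DKO mice 1 and 3 (14 members, 7742 genes) and where 1 array or mouse was left out; a fit with 1 DKO array has little power, so 0 calls in it say nothing about stability. Counts over all genes moved in basal forebrain from 8 to 5 with normexp, 18 with median centring, 3 with no filter, 2 with a filter on all arrays, and 0 without DKO mice 1 and 3. The replicate block gave 0 there; the numbers do not pair the genotypes, which are different mice (same-number correlations of 0.04, 0.36 and -0.42 in basal forebrain and 0.00, 0.20 and 0.25 in cortex), and no other count of members moved with it by over 1.5 times. In cortex they moved from 3 to 5 with median centring, 1 with no filter, 0 with the mean of probes, 1 without trend and 27 on slide 2 alone. In the mean of regions they moved from 42 to 16 with no filter, 22 with a filter on all arrays, 14 without trend, 8 without DKO mice 1 and 3, and 64 with the mouse as a random block. Without those mice 6 members and 3556 genes passed in the DKO region comparison and 15 genes in the interaction. Median centring moved the members' median to -0.36 in DKO between regions and to -0.16 in the interaction, where all genes shifted from 0.06 to -0.11. The cause of these moves was not tested. Leaving out 1 array at a time gave 0 to 24 genes in basal forebrain, 1 to 9759 genes and 0 to 11 members in cortex, 20 to 177 genes and 0 to 1 members in the mean, and 0 to 2591 genes and 0 to 3 members in the interaction, the highest without DKO mouse 3 except in basal forebrain (without Con mouse 2).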
